A study of Mus musculus with 18 samples.

Results

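Wild-type immune cells of the mouse colon were set against wild-type immune cells of the small bowel lamina propria (LP), the connective tissue under the gut lining. A cell was kept when it had at least 1 unique molecular identifier (UMI, a tag that counts a captured RNA molecule) of Ptprc, which encodes the leukocyte antigen CD45, no UMI of the epithelial adhesion gene Epcam, under 20% of its counts from mitochondrial genes, and at least 1000 UMIs. The rule left 6742 of the 60272 cells of the series, with 4494 from colon and 2248 from LP. The colon cells came from 3 barcode groups of 1064, 2237 and 1193 cells, and the LP cells from 3 barcode groups of 882, 889 and 477 cells. Each barcode group was taken as wild type (WT) because the WT hashtag, an antibody-borne DNA label for genotype, had the highest median in it. Counts were summed within each group, so each tissue had n = 3 sums, numbered only as names.

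Both tissues came from WT mice, which carry intact St8sia6, and the labels give no treatment. Per the labels the study ran 3 independent times, each with 2 WT mice, 1 St8sia6 knockout mouse and 1 heterozygous mouse. The 2 WT mice of a run shared a hashtag, so a sum pools animals. The colon preparation combined epithelium and lamina propria, whereas the small bowel epithelium was prepared apart, so the colon cells include those from the epithelium by design. All cells passed a Percoll gradient and CD45 positive selection before capture in droplets with 5' chemistry. Tissue and capture library cannot be told apart, age and strain are not given in the sources used here, and p-values measure the spread between the sums.

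The libraries differed in ways that touch the results. The sums held 6897623, 13688061 and 7107424 UMIs in colon and 5908109, 5522112 and 3279800 UMIs in LP. The median cell had 4600.5, 4655 and 4470 UMIs in colon, against 3656.5, 3296 and 3599 in LP. In LP sum 3 the WT hashtag led in 55.7% of the cells before selection, against 95.7% or more in each of the other WT barcode groups, and the median cell there had 1422.5 UMIs. A stricter rule asked that the WT hashtag hold at least 80% of a cell's hashtag counts. It was met by 33.1%, 42.1% and 33.3% of the kept colon cells and by 58.7%, 85.8% and 42.6% of the kept LP cells. Colon B cells met it least: 1.95%, 16.8% and 1.26% of the colon cells with Ms4a1 as their only gate gene passed. Before selection no other hashtag exceeded the WT hashtag in 100%, 100% and 99.7% of all cells of the colon groups. That share was not counted for B cells alone. WT barcode groups shared 3 to 25 cell barcodes a pair, at most 0.828% of the smaller group.

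The gut wall holds lymphocytes in separate places. Intraepithelial T cells sit between epithelial cells, often carry CD8 and natural killer receptors, and store granzymes. Naive and follicular B cells gather in lymphoid follicles, and plasma cells in the lamina propria secrete dimeric IgA, which is carried into the lumen. The chemokine receptor CCR9 answers CCL25 made in the small bowel, and CCR10 answers CCL28 made in the colon and other mucosal sites. Innate lymphoid cells (ILC) lack antigen receptors: ILC2 respond to IL-25 and IL-33, and ILC3 to IL-23.

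Composition differed between the tissues for 4 of 5 marker classes. Cd3e, a T cell receptor subunit, was detected in 35.5%, 32.4% and 36.8% of colon cells, against 11.6%, 16.2% and 15.5% of LP cells. Ms4a1, which encodes the B cell antigen CD20, was detected in 51.7%, 60.5% and 47.7% of colon cells, against 13.7%, 14.6% and 7.13% of LP cells. Every colon sum lay above every LP sum for both genes.

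The order was turned for Mzb1, a chaperone of immunoglobulin assembly in plasma cells and some B cells. It was detected in 45.4%, 48.9% and 44.2% of colon cells, against 58.3%, 53.3% and 62.9% of LP cells. Cells with none of the 4 gate genes were 10.8%, 6.62% and 10.1% in colon, against 27.6%, 28.5% and 24.1% in LP. These classes did not overlap between tissues either.

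C1qa, a complement gene of tissue macrophages, was detected in 5.55%, 2.55% and 3.94% of colon cells, against 4.76%, 5.06% and 3.14% of LP cells, and the tissues overlapped. Its share among T-like cells (Cd3d and Cd3g present, Cd79a absent), which should lack it, was 5.98%, 4.22% and 4.45% in colon at median depths of 5507, 5300 and 5391 UMIs, and 2.70%, 1.56% and 7.69% in LP at 2565, 2965.5 and 3300.5 UMIs. The colon share of C1qa was thus close to that among T-like cells, and it is not read as a count of macrophages. A T-like cell held on average 1.45, 0.338 and 0.766 C1qa UMIs in colon, against 0.0541, 0.0156 and 0.0769 in LP. All cells with C1qa had medians of 12230, 7154 and 9039 UMIs in colon, against 4482, 4445 and 3640 in LP. Whether stray RNA or doublets gave the C1qa of T-like cells was not tested. The gate with C1qa alone held 20 colon and 52 LP cells, only 1 colon and 2 LP sums reached 10 cells, and its genes are not described; 6.19% of 1697 genes passed the test there (2.47% higher and 3.71% lower).

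The mean differences, colon minus LP, were 20.5 percentage points for Cd3e, 41.5 for Ms4a1, -12.0 for Mzb1 and -17.5 for cells with no gate gene. The two-sided exact permutation p was 0.1 for each of these, the smallest that 3 sums against 3 can give, and 0.125 after Benjamini-Hochberg adjustment over 5 classes. For C1qa the difference was -0.31 points with an exact permutation p of 0.8. After each cell was thinned to 1000 UMIs the means were 23.1% in colon and 6.68% in LP for Cd3e, 27.1% and 6.13% for Ms4a1, 19.0% and 38.3% for Mzb1, and 38.2% and 49.9% for cells with no gate gene. With the 80% hashtag rule the Ms4a1 shares were 21.1% in colon and 9.26% in LP and overlapped (exact permutation p = 0.2), and the Cd3e shares were 71.8% and 20.8%.

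Ms4a1 and Mzb1 were often found in the same cell. Cells with Ms4a1 and Mzb1 but neither Cd3e nor C1qa made up 33.4% ± 4.37 of colon cells and 6.99% ± 2.26 of LP cells (SD, n = 3 each). Cells with Mzb1 as their only gate gene made up 6.00% ± 1.60 of colon cells and 43.6% ± 7.14 of LP cells. A narrower plasma cell gate, added after the data had been seen, asked for Mzb1 and Sdc1, the syndecan of plasma cells, without the other gate genes. It held 1.50%, 0.983% and 0.922% of colon cells, against 29.1%, 20.8% and 30.6% of LP cells. Cells with several other combinations of gate genes, which may include doublets, were 9.83% of colon and 7.94% of LP cells, and no doublet caller was run.

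**Figure D1:**
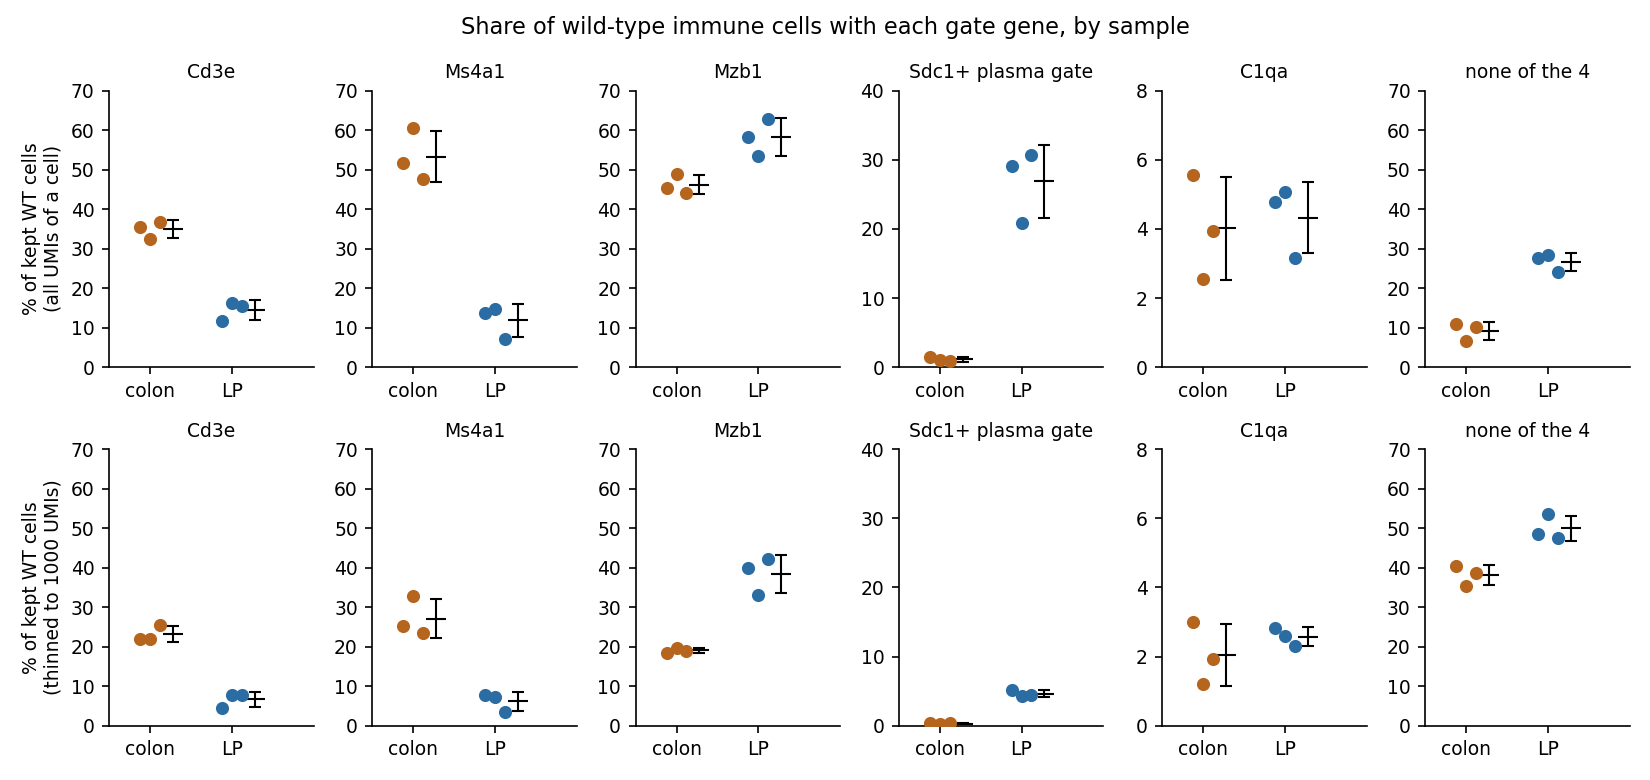
Percent of kept cells (vertical axes) with each gate gene, with none of the 4 gate genes, or in the Sdc1+ plasma cell gate, from all UMIs (top row) and after thinning each cell to 1000 UMIs (bottom row). Points are the 3 colon sums (left) and 3 LP sums (right) with mean ± SD; the Cd3e, Ms4a1, Mzb1, no-gate-gene and Sdc1+ panels separate the tissues in both rows, and the C1qa panels do not.

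RNA from other cells was present in every gate and differed by tissue. Igha, the heavy chain of IgA (chromosome 12, 113256204 to 113260236, GRCm38.p6), had a UMI in 74.5%, 69.9% and 77.2% of colon T-like cells and in 100% of the T-like cells of each LP sum. A T-like cell held on average 2.25, 3.15 and 1.81 Igha UMIs in colon, against 29.4, 19.0 and 26.4 in LP. T cells do not make this transcript, so a low Igha count in another cell type is not read as expression. Immunoglobulin genes took 7.81%, 7.18% and 4.77% of all UMIs in the colon sums, against 43.2%, 35.8% and 45.0% in the LP sums.

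Epithelial RNA also differed between captures, with Krt8 more often detected in colon and small bowel genes in LP. The keratin Krt8 had a UMI in 57.6%, 43.9% and 37.2% of colon Cd3e+ cells, against 8.70%, 4.55% and 6.82% of LP Cd3e+ cells. The Paneth cell defensin Defa24 and the trefoil gene Tff2 had no UMI in any of the 3 colon sums, and averaged 402.5 and 284.2 CPM (counts scaled to library size) over the LP sums. Against a limit of 3 UMIs over the colon sums they were at least 4920-fold and 3480-fold lower in colon. The same genes and the colonic genes Car1, Muc2, Zg16 and Lypd8 headed the ranked genes of nearly every gate, as given for each gate. The part of stray RNA in the other differences was not tested.

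Over all kept cells, 6292 of 12377 genes (50.8%) passed the test, with 3175 higher and 3117 lower in colon. The test here and in each gate was edgeR's quasi-likelihood test with Benjamini-Hochberg adjustment, and a gene was called at an adjusted p under 0.05. Fold changes are log2 of colon over LP, so a positive value is higher in colon. All 15 measured plasma cell markers were lower in colon, 13 of 15 B cell markers were higher, and 17 of 20 cytotoxic genes were higher. Of 22 proliferation genes 17 were higher and 2 lower, the ILC2 markers were lower in 7 of 11 and the ILC3 markers lower in 7 and higher in 3 of 11.

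Single genes of these groups stood far apart. Cd7, a surface protein of T and natural killer (NK) cells, averaged 609.6 ± 160.5 CPM in colon and 47.2 ± 13.6 CPM in LP (log2 3.69, SE 0.29). Klrd1, which encodes the NK receptor chain CD94 (chromosome 6, 129588092 to 129598775), averaged 100.5 ± 7.27 CPM and 13.8 ± 2.53 CPM (log2 2.85, SE 0.14). Il17rb, the receptor for IL-25 (chromosome 14, 29996168 to 30008896), averaged 0.801 ± 0.0483 CPM in colon and 40.1 ± 11.4 CPM in LP (log2 -5.65, SE 0.27). None of these 3 genes overlapped between tissues. Red cell genes also stood apart: Hbb-bs averaged 70.4 ± 11.8 CPM in colon and 1.16 ± 0.872 CPM in LP, and 5 of 5 measured glial and red cell markers were higher in colon. Without the Ptprc requirement Hbb-bs was not called and its log2 turned to -0.21. A bulk sum cannot tell fewer cells of a type from less RNA per cell, so expression was then compared within gates.

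Fold changes also moved with gene length on the genome. Among Cd3e+ cells, the 2031 genes with the shortest span (median 5.37 kb) had a median log2 of 0.45 and the 2031 with the longest span (median 98.7 kb) a median of -0.47. All cells together and the other gates described showed the same order, with medians from 0.25 to 0.49 for short genes and from -0.49 to -0.37 for long genes. When this trend was taken out of each sum, 55.6% of the calls were kept in Cd3e+ cells, 27.6% in Ms4a1+ cells, 48.9% in the wider B cell gate, 78.5% in Mzb1+ cells, 49.2% in Sdc1+ cells and 57.8% in cells with no gate gene. The source of the trend was not tested, and counts without it are given for some lists only.

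Among cells with Cd3e as their only gate gene, 13 of 18 measured cytotoxic genes were higher in colon, and 7 of 12 regulatory T cell genes and 10 of 21 transcription factors of T cell fate were lower. This gate held 1154 colon cells and 178 LP cells, and 22% of 8355 genes were called, with 796 higher (9.53%) and 1039 lower (12.4%). The median cell had 5312.5, 5118 and 5048 UMIs in colon, against 2506, 2779 and 3059 in LP. T-like cells with Cd3e, whatever their other gate genes, numbered 245, 506 and 326 in colon, where the gate held 262, 545 and 347 cells. In LP they numbered 22, 52 and 25, where the gate held 46, 88 and 44 cells. How many LP cells of the gate were T cells was not tested. The T cell receptor gene Trbc1 was lower in colon, at 127.6 ± 10.4 CPM against 288.3 ± 50.8 CPM in LP (log2 -1.16, SE 0.18).

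Of 18 measured cytotoxic genes, 13 were higher in colon and none was called lower, with a median log2 of 1.33 against 0.06 over all genes of the gate. Gzmb, a protease of killer granules, had 2038, 1877 and 1732 CPM in colon, against 389.4, 979.2 and 789.6 CPM in LP (log2 1.35, SE 0.23, edgeR adjusted p = 0.0009116). Gzma, a second granule protease, had 4917, 7053 and 6844 CPM in colon, against 2033, 3814 and 3631 CPM in LP (log2 0.98, SE 0.22, edgeR adjusted p = 0.00517). Every colon sum was above every LP sum for both. The share of cells with a Gzma UMI was nearly the same, at 37.5% ± 10.2 in colon and 37.4% ± 5.36 in LP (exact permutation p = 1).

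The receptors Klrd1 and Cd160 and the adaptor Tyrobp were higher as well. Klrd1 had 431.3, 496.2 and 286.4 CPM in colon, against 103.8, 118.6 and 81.2 CPM in LP (log2 1.96, SE 0.26). Cd160, a receptor for the ligand HVEM (chromosome 3, 96798763 to 96829351), had 395.5, 323.8 and 379.7 CPM in colon, against 69.2, 76.5 and 110.7 CPM in LP (log2 2.11, SE 0.21). Tyrobp, the signalling adaptor DAP12, had 436.5, 251.1 and 334.5 CPM in colon, against 77.9, 61.2 and 95.9 CPM in LP (log2 2.17, SE 0.28).

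The tissues did not overlap for these receptors. Fcer1g, another adaptor, and the activating receptor Klrk1 had log2 values of 1.45 and 1.54, and the protease Ctsw and the chemokine Ccl5 had 1.30 and 0.90. Prf1, the pore-forming perforin, was not called at log2 0.52. With the length trend taken out, 8 of the 18 cytotoxic genes were called higher and none lower, with a median of 0.89, and Gzma, Ccl5, Nkg7, Klrc1 and Klre1 were no longer called.

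Cd8a and Cd7 were higher, while the integrin Itgae and the constant chains Trdc, Tcrg-C1, Tcrg-C2 and Tcrg-C4 of gamma-delta T cells were not called. Cd8a (chromosome 6, 71373427 to 71379171) was detected in 48.1%, 63.9% and 49.0% of colon Cd3e+ cells, against 21.7%, 29.5% and 29.5% of LP Cd3e+ cells, at most 1.30% of colon and 0% of LP Ms4a1+ cells, and had 456.7, 673.9 and 473.1 CPM in colon, against 216.3, 218.0 and 236.1 CPM in LP. The tissues did not overlap, and the log2 was 1.26 (SE 0.20, edgeR adjusted p = 0.0004654). After thinning, Cd8a was detected in 33.5% of colon and 16.4% of LP cells on average. Cd7 had 2493, 2362 and 2742 CPM in colon, against 398.0, 340.4 and 590.3 CPM in LP (log2 2.54, SE 0.19).

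Itgae, the integrin that binds E-cadherin, was detected in 131 of 262, 332 of 545 and 174 of 347 colon Cd3e+ cells, against 16 of 46, 30 of 88 and 17 of 44 LP Cd3e+ cells, but its level was not called (log2 0.50), and after thinning the shares overlapped at means of 26.7% and 21.2%. The T cell receptor segment Tcrg-V7, chosen after its values had been seen, had 180.8, 270.1 and 263.0 CPM in colon, against 0, 0 and 29.5 CPM in LP (log2 4.90, SE 0.55). The gamma-delta marker Trdc was detected in 19.0% ± 4.82 of colon and 15.3% ± 3.38 of LP cells (exact permutation p = 0.4), and 0 of 4 measured gamma-delta markers were called by edgeR.

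Among 22 measured homing and egress receptors, 4 were higher and 6 lower in colon, with a median log2 of -0.06. Ccr9 (chromosome 9, 123767211 to 123783457) had 21.5, 45.5 and 27.2 CPM in colon, against 147.1, 256.3 and 118.1 CPM in LP (log2 -2.51, SE 0.32, edgeR adjusted p = 9.193e-05). It was detected in 7.25%, 15.0% and 11.5% of colon Cd3e+ cells, against 26.1%, 38.6% and 34.1% of LP Cd3e+ cells, and in Ms4a1+ cells of the same sums in at most 2.85% in colon and 4.55% in LP. The tissues did not overlap.

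Its partner in small bowel homing moved by subunit. Itga4, the alpha 4 integrin chain, was lower in colon at 164.1 ± 33.1 CPM against 297.7 ± 88.7 CPM in LP (log2 -0.80, SE 0.22). Itgb7, the beta 7 chain, which also pairs with Itgae, was higher at 398.1 ± 41.5 CPM against 202.6 ± 17.3 CPM (log2 0.99, SE 0.17). Gpr18 and Cxcr3 were higher (log2 1.08 and 1.20), and the inflammatory chemokine receptor Ccr2 was lower (log2 -1.58).

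Of 12 measured regulatory T cell genes, 7 were lower and 2 higher in colon, with a median log2 of -0.86. Il2ra, the high-affinity interleukin-2 receptor chain, had 22.1, 28.8 and 16.0 CPM in colon, against 69.2, 88.0 and 125.4 CPM in LP (log2 -2.04, SE 0.32, edgeR adjusted p = 0.0004667), with no overlap. Ikzf2, which encodes Helios, averaged 521.0 ± 64.8 CPM in colon and 1126 ± 190.7 CPM in LP (log2 -1.10), the costimulator Icos 188.0 ± 13.5 and 449.6 ± 136.9 CPM (log2 -1.30), and the cytokine Il10 18.7 ± 4.97 and 63.7 ± 10.7 CPM (log2 -1.84).

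Foxp3, the transcription factor that defines these cells, was low and its sums overlapped. It had 7.16, 13.6 and 12.6 CPM in colon, against 8.65, 30.6 and 66.4 CPM in LP (log2 -1.60, SE 0.53, edgeR adjusted p = 0.04458), and was detected in 2.16% ± 0.354 of colon and 4.89% ± 2.42 of LP cells (exact permutation p = 0.2). Its call was lost without LP sum 2, without LP sum 3 and with the 80% hashtag rule. The 2 list members that were higher were the folate receptor relative Izumo1r (log2 2.04) and the actin-capping gene Capg (log2 1.64). Il2ra, Ikzf2 and Icos are also active in other activated T cells.

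Of 21 measured transcription factors of T cell fate, 10 were lower in colon and 2 higher, with a median log2 of -0.63. Zbtb16, which encodes PLZF, the factor of innate-like T cells (chromosome 9, 48651797 to 48836225), had 19.5, 10.1 and 11.2 CPM in colon, against 450.0, 248.6 and 110.7 CPM in LP (log2 -4.33, SE 0.38, edgeR adjusted p = 4.526e-06). Rora, which encodes a factor of innate lymphoid and interleukin-17-producing cells, had 182.8, 178.7 and 183.8 CPM in colon, against 527.8, 768.8 and 944.6 CPM in LP (log2 -2.05, SE 0.19). Neither gene overlapped, and the LP sums varied widely for Zbtb16.

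Gata3 and Maf, both factors of helper T cells, were lower too, at log2 -1.58 and -1.46. Ahr, the aryl hydrocarbon receptor, was at log2 -0.63 (SE 0.19) and lost its call when any of 5 of the 6 sums was left out. The higher pair was Id3, an inhibitor of E proteins (log2 1.79), and Klf2, a factor that keeps lymphocytes in circulation (chromosome 8, 72319062 to 72321654), which had 1060, 514.6 and 670.5 CPM in colon, against 467.3, 191.3 and 140.2 CPM in LP (log2 1.56, SE 0.34). Klf2 was not called under the 80% hashtag rule. Of 13 measured naive and recirculating genes 2 were higher (Klf2 and Igfbp4, log2 1.77) and 4 lower (Il7r, Satb1, Bach2 and Foxo1), with a positive median log2 of 0.41. Il7r, the interleukin-7 receptor, averaged 142.8 ± 9.97 CPM in colon and 525.2 ± 52.1 CPM in LP (log2 -1.87), and Satb1 and Bach2, which restrain effector differentiation, had log2 values of -1.51 and -1.65. Il7r, Satb1 and Bach2 are also active in innate-like T cells or ILC.

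Of 14 measured T cell cytokines, 1 was higher and 3 were lower. Il22, which acts on epithelium, had 54.6, 31.0 and 250.9 CPM in colon, against 467.3, 466.7 and 730.6 CPM in LP (log2 -2.30, SE 0.56, edgeR adjusted p = 0.009507), with colon sum 3 above the other colon sums, and its call was lost without LP sum 3. Cd40lg, the helper ligand for B cells, was lower (log2 -1.56) and lymphotoxin beta, Ltb, higher (log2 1.11). Il17a was detected in 4.22% ± 2.70 of colon and 9.37% ± 5.68 of LP Cd3e+ cells (exact permutation p = 0.3), and Ifng in 17.6% ± 1.27 and 12.4% ± 4.26 (exact permutation p = 0.3).

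**Figure D2:**
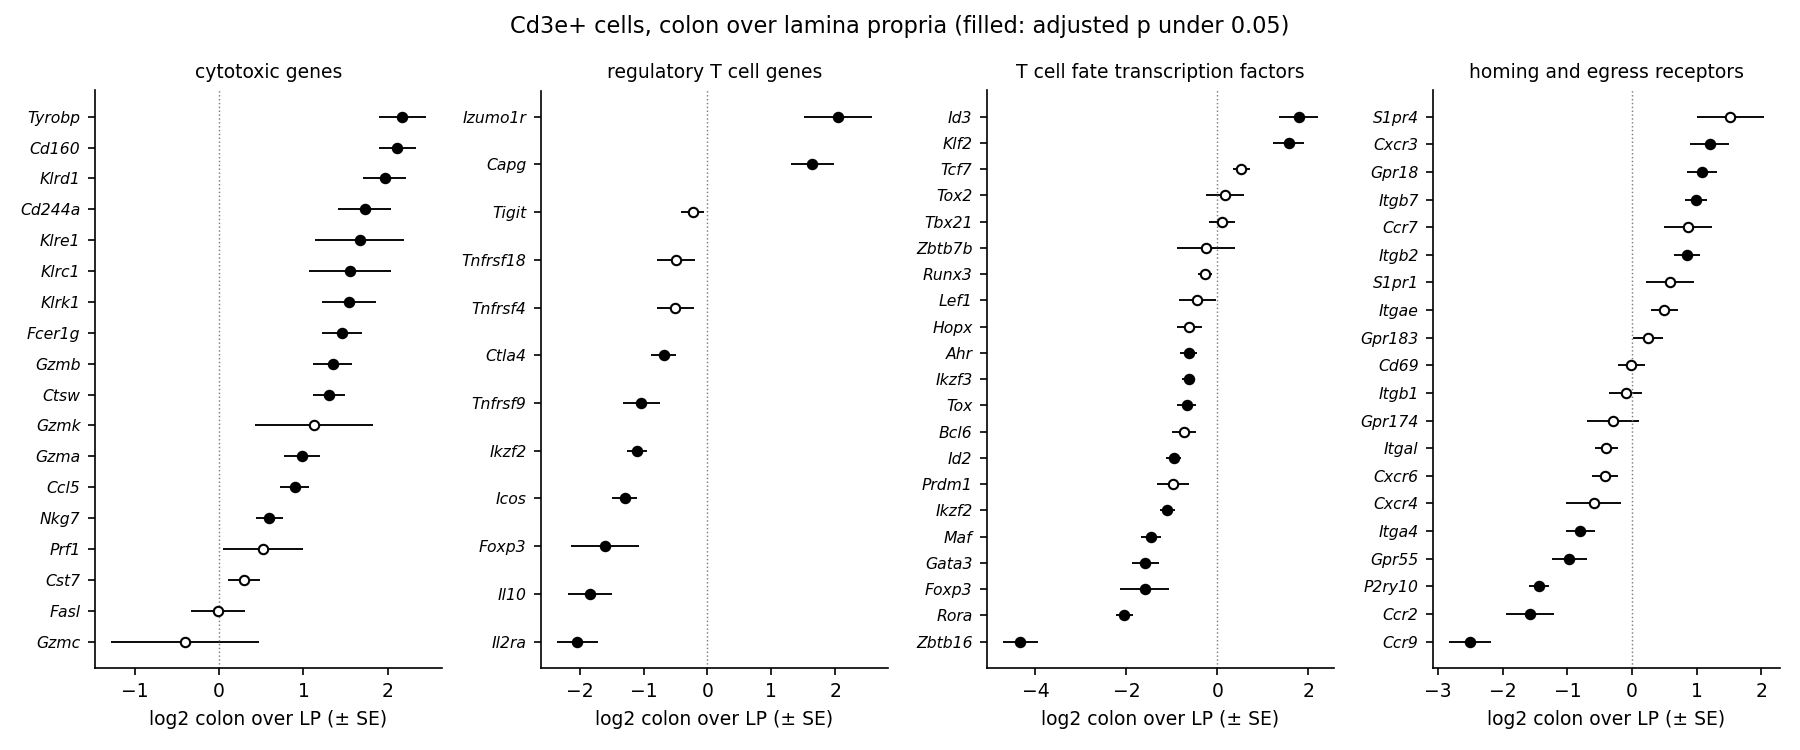
Log2 of colon over LP (horizontal axes) with standard error in Cd3e+ cells, for genes of 4 lists: cytotoxic genes, regulatory T cell genes, transcription factors of T cell fate, and homing and egress receptors. Filled points passed an adjusted p under 0.05; the filled cytotoxic points all lie right of 0 and most filled points of the regulatory and transcription factor lists lie left of it.

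Ranked by size alone, the genes of this gate were partly those of other cells. Dcn, a fibroblast proteoglycan, had 97.6, 20.6 and 168.2 CPM in colon and no UMI in LP, at least 16.3-fold higher, and Car1, Lypd8, Muc2, Zg16 and Gsn were also higher. Defa24, Tff2 and Gkn3 had no UMI in colon Cd3e+ cells, at least 1090-fold, 799-fold and 128-fold lower. The 3 measured fibroblast markers summed to 144 CPM in colon and 0 CPM in LP, and the 8 measured epithelial markers to 497 CPM and 174 CPM; their part in the other calls was not tested. Of the other ranked genes, Coro1b, a coronin of the actin skeleton, had 171.1, 150.2 and 168.2 CPM in colon, against 8.65, 11.5 and 7.38 CPM in LP (log2 4.05, SE 0.33), and Ddit4, an inhibitor of mTOR signalling, was higher at log2 3.98. Epas1, which encodes the hypoxia factor HIF-2 alpha, and Dhrs3, an enzyme of retinoid metabolism, were lower at log2 -3.94 and -3.62.

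The LP gate was small, and LP sum 2 held 88 of its 178 cells. Without LP sum 2, 947 genes were called in place of 1835, and 18 of 66 named genes lost their call, among them Foxp3, Ctla4, Il10, Ccr2, Cd40lg, Id3, Capg, Izumo1r, Klrc1, Klre1, Cd4 and Ahr. Without it the cytotoxic list kept 11 genes called higher and none lower of 20 measured, and the regulatory list 4 lower and none higher of 15. Without LP sum 3, Dcn, Klrc1, Klre1, Cd4, Foxp3, Ctla4, Izumo1r, Il22, Itga4 and Ahr lost their call, and Klre1, Cd4, Itga4 and Ahr also did without colon sum 1. Under the 80% hashtag rule 13 of 17 measured cytotoxic genes were called higher, and of the named genes 3 lost their call. With the length trend taken out, 11 of 66 named genes lost their call. Among the 2031 genes of this gate with the longest span, 584 were called lower and 38 higher. Counts without the trend are not given here for the regulatory, transcription factor and homing lists.

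Among B cells with Ms4a1 and without Mzb1, 14 of 29 measured immediate early and dissociation genes and 5 of 13 MHC class II genes were higher in colon. When the length trend was taken out, 3 immediate early genes were higher and 1 lower, and no class II gene was called. The gate held 699 colon cells and 110 LP cells, of which LP sum 3 gave 10, and 11.6% of 5221 genes were called, with 325 higher (6.22%) and 280 lower (5.36%). The median cell had 3626, 3927.5 and 3677 UMIs in colon, against 1887, 2142 and 2321.5 UMIs in LP. The hashtag limit on colon B cells given above applies to the whole gate.

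Of 29 measured immediate early and dissociation genes, 14 were higher in colon and none was called lower, with a median log2 of 0.91 against 0.07 over all genes of the gate. Without the length trend the median was 0.35, and Fos, Zfp36 and Hspa8 were still called. Fos, a subunit of the AP-1 factor (chromosome 12, 85473890 to 85477274), had 2289, 2110 and 2247 CPM in colon, against 611.2, 356.0 and 623.4 CPM in LP (log2 2.11, SE 0.20, edgeR adjusted p = 1.837e-08). Zfp36, which destabilises cytokine mRNA, had 1731, 1792 and 2019 CPM in colon, against 575.2, 500.7 and 428.6 CPM in LP (log2 1.83, SE 0.19). Hspa8, a heat shock cognate chaperone, had 2012, 1707 and 1801 CPM in colon, against 584.2, 701.0 and 545.5 CPM in LP (log2 1.56, SE 0.19).

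The tissues were far apart for all 3. Jun and Junb, further AP-1 subunits, had log2 values of 1.27 and 1.29, and Klf6 had 1.34. The list covers genes that tissue digestion is known to induce, and time in digestion is not given by tissue in the sources used here. In Cd3e+ cells of the same captures 5 of 28 genes of this list were higher and 4 lower, with a median log2 of 0.15; the difference between the gates was not tested.

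Of 13 measured MHC class II genes, 5 were higher and none was called lower, with a median log2 of 0.62. With the length trend taken out none was called, the median was 0.13, and H2-Aa was at -0.0042. Cd74, the invariant chain of class II molecules, had 26910, 26290 and 26180 CPM in colon, against 13640, 13050 and 10750 CPM in LP (log2 1.08, SE 0.13, edgeR adjusted p = 2.455e-06). H2-DMb2, a subunit of the peptide editor, averaged 914.6 ± 142.6 CPM in colon and 352.0 ± 52.7 CPM in LP (log2 1.34), H2-Aa had a log2 of 0.69, and Ifi30, a lysosomal reductase, of 1.18. Cd74 and H2-DMb2 did not overlap between tissues. H2-Eb1 was called at log2 0.89, though its sums overlapped.

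Of 7 measured naive and recirculating genes in this gate 2 were higher, Klf2 and Ccr7, and 2 lower, Bach2 and Satb1; Klf2 alone of these 4 was still called with the length trend taken out. Klf2 had 3121, 2715 and 2442 CPM in colon, against 647.1, 723.2 and 857.2 CPM in LP (log2 1.95, SE 0.18, edgeR adjusted p = 1.386e-08). Ccr7, the receptor for lymphoid chemokines, averaged 1338 ± 125.6 CPM in colon and 610.5 ± 181.2 CPM in LP (log2 1.03, SE 0.20). Cd37, a B cell tetraspanin, averaged 1300 ± 139.6 CPM and 360.4 ± 51.0 CPM (log2 1.80, SE 0.21).

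Klf2, Ccr7 and Cd37 kept every colon sum above every LP sum. Fcer2a, the low-affinity IgE receptor CD23 of follicular B cells, was detected in 48.1%, 59.3% and 47.8% of colon Ms4a1+ cells, against 19.6%, 29.5% and 20.0% of LP Ms4a1+ cells, and in at most 0.763% of colon and 0% of LP Cd3e+ cells. Its level was higher at log2 1.04 (SE 0.30). Cr2, the complement receptor CD21, was detected in 28.6%, 43.8% and 34.6% of colon cells, against 17.9%, 9.09% and 20.0% of LP cells, and in Cd3e+ cells in at most 0.763% in colon and 2.17% in LP.

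After thinning to equal depth, Fcer2a stood at 22.1% in colon and 13.4% in LP with overlap (exact permutation p = 0.3), and Cr2 at 14.1% and 5.84%. Cd69, an activation and retention receptor, was detected in 79.9%, 72.0% and 76.7% of colon Ms4a1+ cells, against 41.1%, 45.5% and 60.0% of LP cells, and its level had a log2 of 0.78 (SE 0.22). Within the homing list, Cxcr5, Gpr183 and Gpr18 were also higher, at log2 0.95, 0.90 and 1.43, making 5 of 17 higher and none called lower. Of 15 measured B cell markers, 4 were higher (Cd79a, Cd37, Fcer2a and Fcrla) and 1 was lower, the B lineage factor Pax5 (log2 -0.94, with overlapping sums).

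Genes lower in colon Ms4a1+ cells included regulators of transcription. Basp1, a membrane and nuclear protein on the germinal centre list, had 18.6, 25.6 and 45.8 CPM in colon, against 134.8, 244.8 and 155.8 CPM in LP (log2 -2.64, SE 0.39). Bach2, which delays plasma cell differentiation, averaged 920.0 ± 114.0 CPM in colon and 1714 ± 321.2 CPM in LP (log2 -0.92, SE 0.18), and Satb1 835.5 ± 96.9 and 1496 ± 116.9 CPM (log2 -0.86, SE 0.17). None of the 3 overlapped.

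Interferon-stimulated genes were few in this gate, with 3 of 5 measured higher. Zbp1, a sensor of nucleic acids, averaged 55.3 ± 1.72 CPM in colon and 5.99 ± 10.4 CPM in LP (log2 2.62, SE 0.77). Irf7 was called at log2 3.58 with overlapping sums.

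The immunoglobulin heavy chain with the most UMIs in a cell was Ighm in 68.1% ± 7.32 of colon Ms4a1+ cells and 1.89% ± 3.27 of LP Ms4a1+ cells, and Igha in 31.3% ± 6.51 and 98.1% ± 3.27. Igha was present in 100% of LP T-like cells, so these shares are not read as IgA+ B cells. Ighm itself was detected in 82.6% ± 4.60 of colon and 80.1% ± 8.83 of LP cells, and in 46.6% and 65.2% after thinning. Its level was lower in colon, at 781.7, 663.8 and 642.4 CPM against 1968, 1602 and 662.3 CPM in LP (log2 -1.13, SE 0.22), with LP sum 3 overlapping the colon sums.

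**Figure D3:**
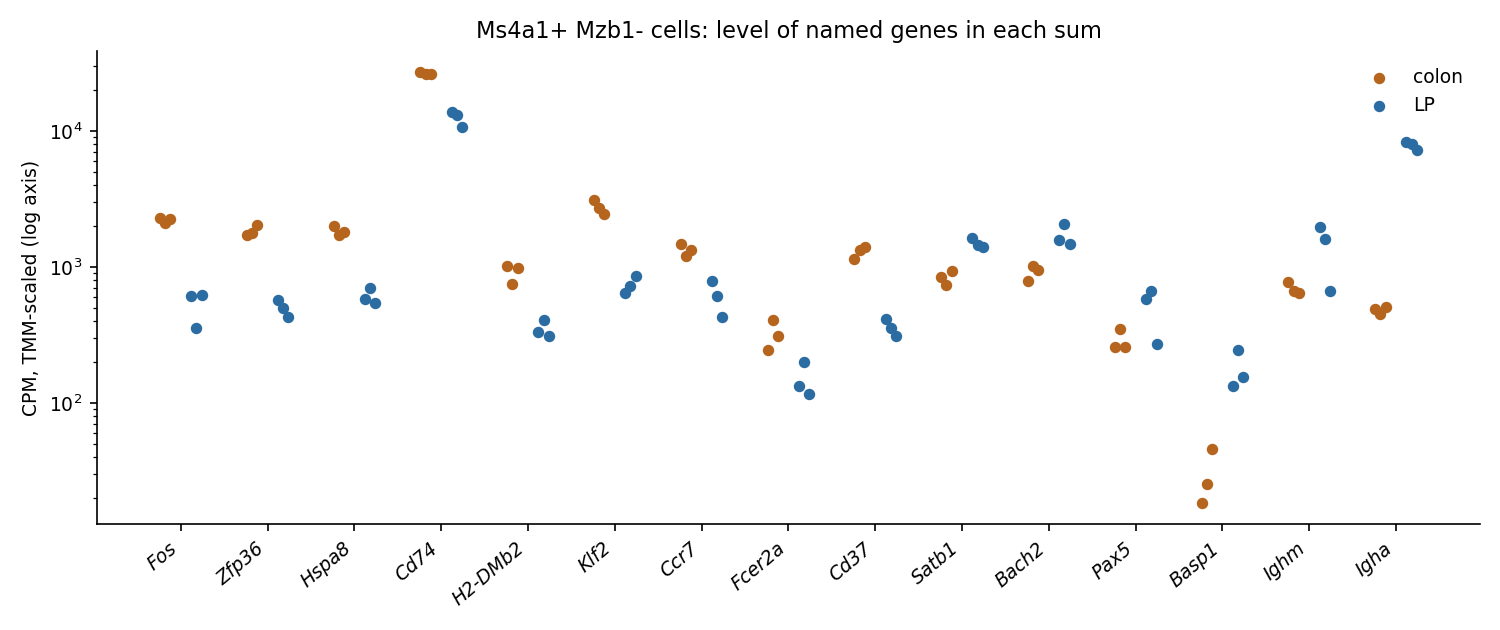
Levels in cells with Ms4a1 and without Mzb1, Cd3e or C1qa, as CPM on a log axis, for each colon sum (left of each pair) and each LP sum (right). Fos, Zfp36, Hspa8, Cd74, H2-DMb2, Klf2, Ccr7, Fcer2a and Cd37 lie higher in the 3 colon sums, and Satb1, Bach2, Basp1 and Igha lie lower.

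Many calls in this gate were lost under other settings. Taking out the length trend ended 22 calls of named genes, including Cd74, H2-DMb2, Ccr7, Jun, Junb, Bach2 and Satb1; Fos, Zfp36, Hspa8, Klf2, Cd37 and Basp1 were still called. The count of calls in place of 605 was 294 without LP sum 1 and 367 without LP sum 2, with 12 immediate early and 5 class II genes higher without LP sum 2. Leaving out LP sum 1 ended the call of Gpr18, Fcrla, Pax5, Satb1, Ighm, Cxcr5, Fcer2a and Irf7 among others, leaving out LP sum 2 that of Gpr183, Cd69 and Zbp1, and leaving out colon sum 1 or 3 that of H2-Eb1. Under the 80% hashtag rule only 1 colon and 2 LP sums could be used and 71 genes were called.

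Epithelial genes were again among the ranked genes: Muc2, Car1, Ckmt1, Fcgbp and Oit1 had no UMI in LP Ms4a1+ cells and were at least 9.13-fold, 6.50-fold, 4.42-fold, 4.02-fold and 3.79-fold higher in colon, followed by Lypd8, Zg16 and Reg3b. Defa24, Tff2 and Gkn3 were at least 579-fold, 247-fold and 69.4-fold lower, and Igha, Cdk14, Ighg2b, Slpi and Emb followed. A wider gate, with Ms4a1 and any Mzb1, was added after seeing the data and held 2256 colon and 276 LP cells. There 17.7% of 9314 genes were called (8.47% higher and 9.21% lower), and 18 of 29 immediate early genes and 8 of 13 class II genes were higher with none called lower. With the length trend taken out 12 immediate early genes were higher and 1 lower, and 4 class II genes were higher. Of the named genes, Socs3, an inhibitor of cytokine signalling, averaged 102.2 ± 5.23 CPM in colon and 6.96 ± 6.80 CPM in LP (log2 3.53, SE 0.32), and Fndc3b 5.94 ± 0.867 and 81.5 ± 7.73 CPM (log2 -3.70, SE 0.22). Under the 80% hashtag rule, 19 genes were called in this wider gate from 3 colon and 2 LP sums. In place of 1647 calls there were 716 without LP sum 2, 922 without LP sum 1, 1077 without colon sum 1 and 1066 without colon sum 3.

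Among cells with Mzb1 as their only gate gene, 13 of 14 measured B cell markers were higher in colon and 8 of 15 plasma cell markers lower. The gate held 251 colon and 951 LP cells with medians of 4170.5, 4410 and 3944 UMIs in colon and 9109.5, 8501.5 and 8837 UMIs in LP, and 29.3% of 8042 genes were called (14% higher and 15.3% lower). The 80% hashtag rule was met by 29.4%, 37.9% and 12.5% of the colon cells, against 59.4%, 77.9% and 39.5% of the LP cells. Under it 614 genes were called in place of 2358, with 2 of 7 measured B cell markers and 9 of 13 class II genes higher, 3 of 15 plasma cell markers lower, and Cd79a and Xbp1 at the opposite sign.

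Of 14 measured B cell markers 13 were higher and of 13 class II genes 13 were higher, with medians of 2.88 and 2.92. Fcmr, the IgM Fc receptor, averaged 150.8 ± 21.1 CPM in colon and 4.60 ± 2.97 CPM in LP (log2 4.90), Ccr7 390.9 ± 62.7 and 22.3 ± 10.3 CPM (log2 4.11), and H2-Aa 2143 ± 381.3 and 282.1 ± 191.5 CPM (log2 2.92). Of 15 plasma cell markers 8 were lower, among them Sdc1 itself (log2 -1.22), Prdm1, the master factor of plasma cells (log2 -2.01), and the survival receptor Tnfrsf17 (log2 -1.03). Igha led the heavy chains in 57.4%, 57.0% and 59.7% of colon cells and in 99.7% ± 0.263 of LP cells, and Ighm in 41.0%, 40.5% and 39.0% and in 0.175% ± 0.302. Mcpt1, a mast cell protease, had 493.4, 7.26 and 11.3 CPM in colon and no UMI in LP, so colon sum 1 alone was high.

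The narrower Sdc1+ gate held 16, 22 and 11 colon cells and 257, 185 and 146 LP cells, with medians of 22364, 17220.5 and 21977 UMIs in colon against 10883, 11644 and 10947.5 in LP. Igha led the heavy chains in 96.2% ± 3.43 of colon and 99.8% ± 0.312 of LP cells. Immunoglobulin genes took 61.4%, 61.9% and 67.9% of UMIs in colon and 56.5%, 55.9% and 56.9% in LP. Here 8.94% of 5794 genes were called, with 227 higher (3.92%) and 291 lower (5.02%).

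The 2 receptors of IgA plasma cell homing differed in their pattern. Ccr9 had 3.05, 9.59 and 11.7 CPM in colon Sdc1+ cells, against 75.4, 77.6 and 90.9 CPM in LP (log2 -3.39, SE 0.33, edgeR adjusted p = 0.0006851). It was detected in 1 of 16, 2 of 22 and 1 of 11 colon cells (6.25%, 9.09% and 9.09%), against 49.8%, 50.3% and 49.3% of LP cells. The LP shares were nearly equal and far above every colon sum, even though the colon cells were deeper.

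Ccr10 (chromosome 11, 101172998 to 101175443) was detected in 81.3%, 77.3% and 54.5% of colon Sdc1+ cells, against 56.8%, 60.0% and 56.8% of LP cells (exact permutation p = 0.4), and in at most 0.917% of colon and 2.17% of LP Cd3e+ cells. Its level was 210.1, 146.3 and 135.0 CPM in colon, against 102.3, 118.8 and 102.3 CPM in LP, which did not pass the test (log2 0.62, SE 0.20, edgeR adjusted p = 0.08577). In the wider Mzb1+ gate Ccr10 shares were 20.6%, 22.1% and 6.82% in colon, against 46.1%, 42.3% and 44.0% in LP, the opposite order. Thinned to 1000 UMIs, Ccr9 was detected in 1.52% of colon and 8.63% of LP Sdc1+ cells, and Ccr10 in 13.8% and 8.09%.

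**Figure D4:**
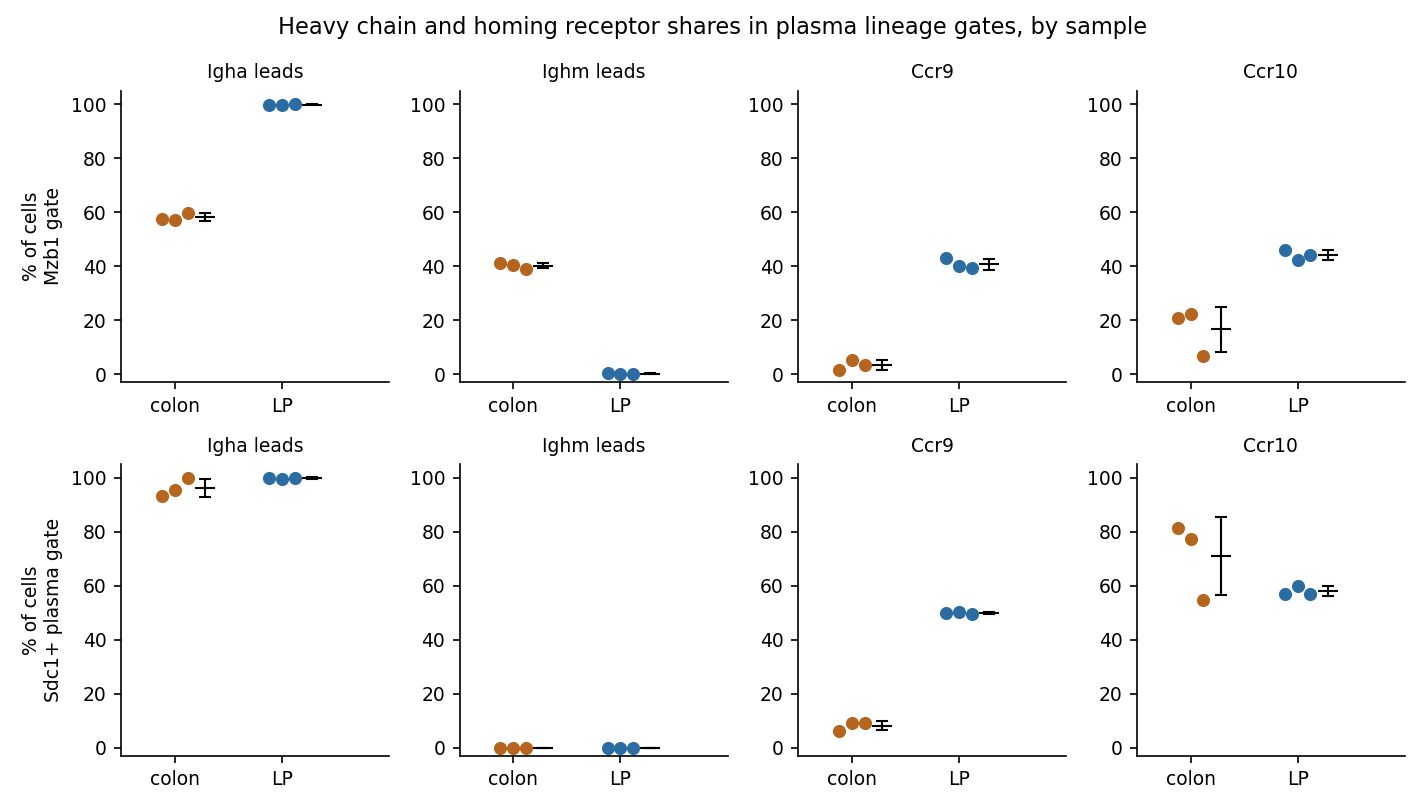
Percent of cells (vertical axes) whose leading heavy chain gene was Igha or Ighm, and percent with a UMI of Ccr9 or Ccr10, in cells with Mzb1 as only gate gene (top) and in Sdc1+ plasma cells (bottom). Points are the 3 colon sums (left) and the 3 LP sums (right) with mean ± SD; Ighm leads in about 40.2% of colon Mzb1+ cells and in 0% of Sdc1+ cells, and Ccr9 separates the tissues in both gates.

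The secretory machinery of Sdc1+ cells was mostly not called. Of 15 plasma cell markers only Irf4, the factor that holds plasma cell identity, was called, and lower: it averaged 79.9 ± 8.19 CPM in colon and 139.3 ± 9.73 CPM in LP (log2 -0.78, SE 0.17). Of 30 secretory and unfolded protein response genes 2 were higher and none lower, the translocon subunit Ssr2 (log2 1.20, SE 0.22) and the disulfide isomerase Pdia3 (log2 1.02, SE 0.26). Xbp1, the driver of this response, had 2399, 1605 and 1791 CPM in colon, against 1087, 945.6 and 934.7 CPM in LP, and did not pass the test (log2 0.97, SE 0.37, edgeR adjusted p = 0.1321). Igha had 42510, 57620 and 47720 CPM in colon, against 186100, 178200 and 214600 CPM in LP, a gap without overlap that also missed the threshold (log2 -1.97, SE 0.90, edgeR adjusted p = 0.2061). The complement-fixing isotype Ighg2c was called at log2 5.01 with overlapping sums of 2457, 681.2 and 5.87 CPM in colon, against 14.3, 43.2 and 40.6 CPM in LP.

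Other genes of colon Sdc1+ cells differed clearly. Vim, which encodes the intermediate filament vimentin, had 535.9, 604.4 and 340.6 CPM in colon, against 85.1, 82.4 and 49.2 CPM in LP (log2 2.77, SE 0.31). Capg had 134.0, 115.1 and 123.3 CPM in colon, against 43.5, 39.6 and 36.6 CPM in LP (log2 1.62, SE 0.15). Klf2 averaged 273.4 ± 24.7 CPM and 96.9 ± 24.2 CPM (log2 1.50, SE 0.22).

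These 3 genes kept the tissues apart and stayed called whichever sum was left out. Prg2, best known as the eosinophil major basic protein, was lower in colon at 39.6, 2.40 and 11.7 CPM against 145.9, 112.3 and 105.2 CPM in LP (log2 -2.78, SE 0.49), and was lower in the Mzb1+ gate as well (log2 -4.02, SE 0.44). The glycolytic enzyme Pkm and the adhesion receptor Cd2 were higher (log2 1.66 and 1.83), as were Lyz2 and S100a6. Inpp5a, Adk, Cacna1d and Fhit were lower. Among the 1396 genes of this gate with the longest span, 166 were called lower and 8 higher. With the length trend taken out, 11 of 32 named genes of the gate lost their call. The call of 518 genes fell to 134 without colon sum 1, 194 without colon sum 2 and 253 without LP sum 2, and 15 of 32 named genes lost their call without colon sum 1, among them Lyz2, S100a6, Cacna1d, Irf4, Ssr2, Pdia3 and Ighg2c. Prg2 lost its call without colon sum 3.

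Among cells with none of the 4 gate genes, cytotoxic and NK genes were higher in colon, and called ILC2 genes and some ILC3 genes were lower. The class held 384 colon cells and 611 LP cells with medians of 3175, 3104.5 and 3331 UMIs in colon and 2042, 2558 and 2271 UMIs in LP, and 25.2% of 7073 genes were called, with 847 higher (12%) and 937 lower (13.2%). The fit was added after seeing the data. It is a mixed class, and some cells may be T or B cells in which the gate gene was missed. Cd3d was detected in 13.9% ± 2.46 of colon and 8.83% ± 1.39 of LP cells, and Cd79a in 34.2% ± 6.65 and 28.1% ± 4.56. The part of stray RNA in these shares was not tested, and immunoglobulin genes took 4.88%, 4.27% and 10.8% of UMIs in the LP sums of this class.

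Of 17 measured cytotoxic genes 14 were higher and none was called lower, with a median log2 of 1.95 against 0.03 over all genes. Of 6 NK and ILC1 markers 5 were higher, with a median of 1.88. Klrd1 had 171.5, 198.9 and 271.6 CPM in colon, against 38.9, 38.4 and 7.68 CPM in LP (log2 2.74, SE 0.34, edgeR adjusted p = 0.0003466). Ncr1, which encodes the NK receptor NKp46, had 93.0, 85.7 and 208.1 CPM in colon, against 27.8, 38.4 and 11.5 CPM in LP (log2 2.15, SE 0.42), and was detected in 14.6% ± 9.46 of colon and 4.47% ± 2.52 of LP cells (exact permutation p = 0.2). Ncr1 and Klrd1 did not overlap in level.

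Ctsw, Cd160 and Tyrobp followed at log2 2.67, 2.77 and 2.10, and Gzmb at 2.19. Klra4, which encodes an NK receptor, had the largest value among the NK and ILC1 markers, at log2 3.52 (SE 0.65). Prf1, not called in Cd3e+ cells, was higher here at log2 1.87 (SE 0.50), a call lost without LP sum 1, without LP sum 2, without colon sum 3 and with the length trend taken out. Cd7 had 510.3, 658.3 and 1106 CPM in colon, against 81.5, 96.1 and 23.0 CPM in LP (log2 3.41, SE 0.41), and Itgae averaged 137.1 ± 57.0 and 39.8 ± 25.7 CPM (log2 1.98, SE 0.42).

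Of 7 measured ILC2 markers 4 were lower and none higher, with a median log2 of -1.33. Il17rb had 10.3, 15.4 and 3.97 CPM in colon, against 177.9, 305.9 and 130.5 CPM in LP (log2 -4.35, SE 0.43, edgeR adjusted p = 9.678e-05). Gata3, the factor of ILC2 and type 2 helper cells, had 41.3, 61.7 and 45.6 CPM in colon, against 157.5, 280.8 and 138.1 CPM in LP (log2 -1.98, SE 0.30). Both were apart in every sum. The neuropeptide gene Calca was lower at log2 -2.90 (SE 0.75), though LP sum 3, at 11.5 CPM, overlapped the colon sums.

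Of 10 measured ILC3 markers 3 were lower and 2 higher, with a median log2 of -0.61. Il23r, the interleukin-23 receptor, had 2.07, 15.4 and 11.9 CPM in colon, against 222.4, 136.0 and 230.2 CPM in LP (log2 -4.22, SE 0.40, edgeR adjusted p = 8.099e-05). Its tissues did not overlap. Il1r1, the interleukin-1 receptor, was lower at log2 -2.30. The higher markers were Ncr1, which NK cells share, and Cxcr5, which B cells share. Il22 was at log2 -1.91 and not called.

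Ccr9 was lower here too, at 10.3, 3.43 and 3.97 CPM in colon against 127.9, 189.2 and 57.6 CPM in LP (log2 -4.46, SE 0.52). It was detected in 0.870%, 1.35% and 1.65% of colon cells, against 18.9%, 24.5% and 10.4% of LP cells. Among 24 homing receptors 10 were higher and 3 lower. Macrophage genes were higher in 4 of 6, with Csf1r, the receptor for the macrophage growth factor CSF1, at 70.2 ± 11.3 CPM in colon and 24.5 ± 14.9 CPM in LP (log2 1.67) and Apoe at log2 1.25; Apoe and Ccr7 had the opposite sign under the 80% hashtag rule.

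**Figure D5:**
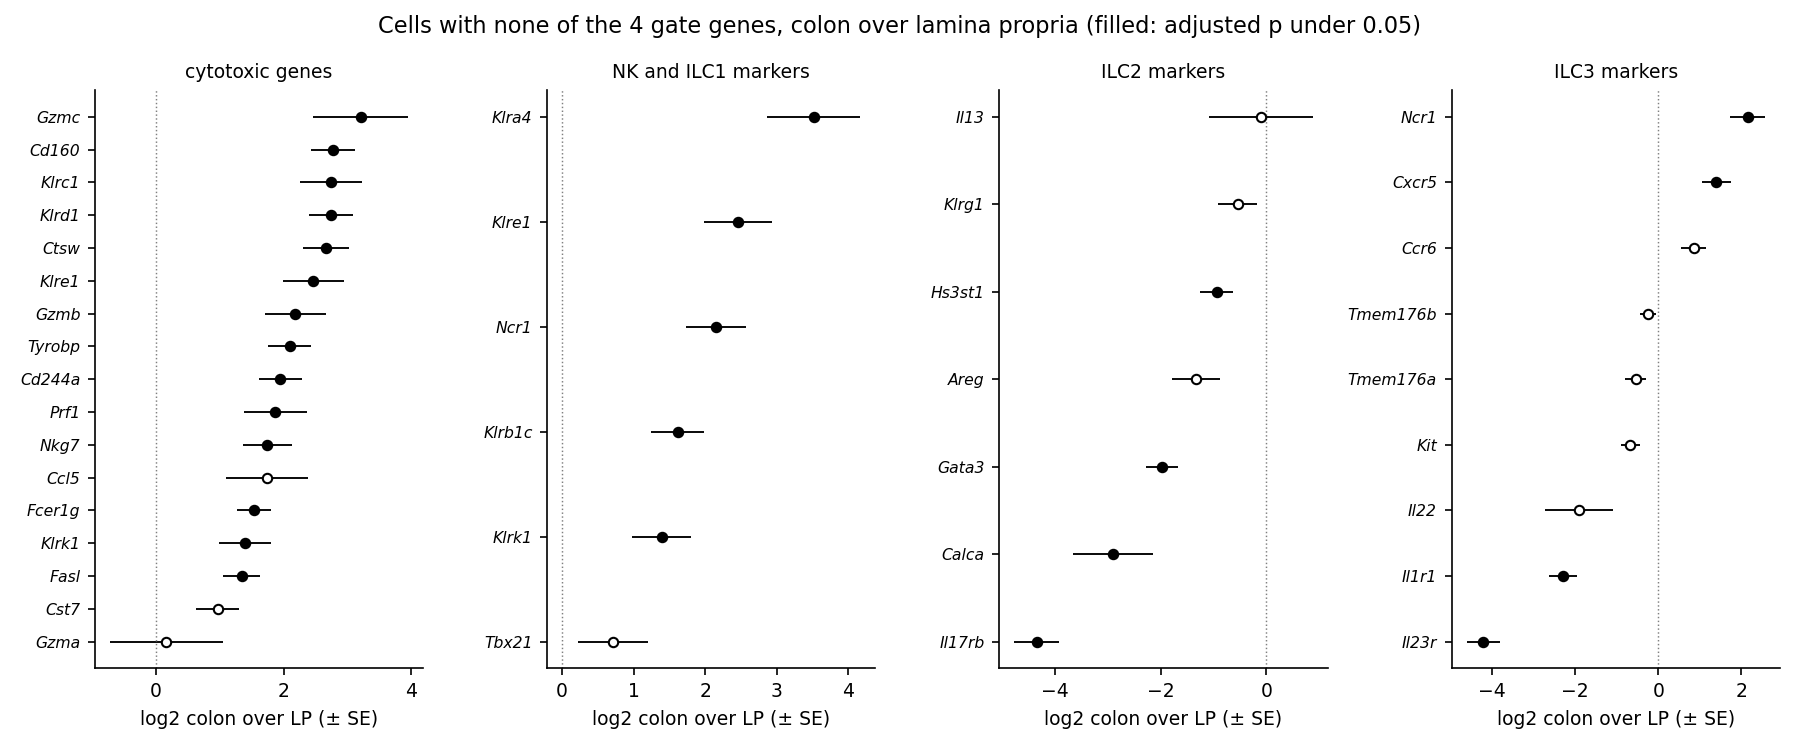
Log2 of colon over LP (horizontal axes) with standard error in cells with none of the 4 gate genes, for genes of the cytotoxic, NK and ILC1, ILC2, and ILC3 lists. Filled points passed an adjusted p under 0.05; filled cytotoxic and NK points lie right of 0, filled ILC2 points lie left of it, and the ILC3 list holds filled points on both sides.

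The same class carried epithelial RNA. Krt8 was detected in 60.0%, 42.6% and 34.7% of colon cells, against 11.5%, 4.35% and 20.9% of LP cells, and all 8 measured epithelial markers were higher, summing to 742 CPM in colon and 171 CPM in LP. Car1 was at least 40.4-fold higher, and Fcgbp, Oit1, Muc2, Lypd8 and Zg16 were higher too. Defa24, Tff2, Gkn3 and Lgals2 were at least 459-fold, 337-fold, 71.5-fold and 32.3-fold lower, and Ablim3, Muc6 and Adgrl3 followed. The cell source of these genes was not tested. With the length trend taken out 12 cytotoxic, 4 NK and ILC1 genes were higher and 4 ILC2 genes lower. Without LP sum 2, 1049 genes were called in place of 1784, with 12 cytotoxic and 5 NK genes higher and 2 ILC2 genes lower, and Calca, Gzmc and Cd68 lost their call. Without colon sum 3, Calca, Csf1r and Apoe did.

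St8sia6, the sialyltransferase after which the study's mice were made (chromosome 2, 13651018 to 13794734), was lower in colon over all WT cells. It had 14.6, 13.2 and 12.1 CPM in colon, against 74.3, 72.7 and 104.0 CPM in LP (log2 -2.64, SE 0.16, edgeR adjusted p = 5.506e-05), with no overlap. Within Mzb1+ cells the log2 was -1.77 (SE 0.36), and within Sdc1+ cells 36.5, 57.6 and 11.7 CPM in colon stood against 60.4, 73.5 and 76.0 CPM in LP, which did not pass the test (log2 -0.78, SE 0.31, edgeR adjusted p = 0.1414). St6galnac3, a sialyltransferase of O-glycans and glycolipids, was lower in colon Sdc1+ cells (log2 -1.86, SE 0.27) and in colon Cd3e+ cells, where it averaged 136.6 ± 37.6 CPM against 774.1 ± 23.6 CPM in LP (log2 -2.49, SE 0.20). In Sdc1+ cells its call was lost when the length trend was taken out.

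Cells of the other genotypes in the same captures gave their own colon and LP comparison. Of 1835 WT calls in Cd3e+ cells, 1812 were measured in knockout cells, where 1790 had the same sign and 1390 were also called, which is 75.7% of the WT calls and 51.5% of the knockout calls. In Ms4a1+ cells 373 were called in both, 61.7% of the WT calls and 44.9% of the knockout calls, and in cells with no gate gene 864, 48.4% and 69.1%. In Mzb1+ cells 1167 were called in both, 49.5% and 68.1%, and in Sdc1+ cells 168, 32.4% and 48.3%. Heterozygous cells shared 73.1% of the WT calls in Cd3e+, 36.7% in Ms4a1+, 41.9% in Mzb1+ and 43.7% in cells with no gate gene. Those cells share their captures and stray RNA with the WT cells, so they are no independent set.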

How the data were processed

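For each cell the authors deposited unnormalised UMI counts of genes and of hashtags, made with Cell Ranger and Seurat on mm10, per the submitters' processing notes; versions are not given in the sources used here. Other deposited entries are the names of genes and cell barcodes. The cells, gates and gene lists were chosen with earlier results of these data known.

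WT barcode endings were taken by their median hashtag counts, and 3 colon and 3 LP sums of raw counts were made per gate, leaving out sums under 10 cells. A gate asks for 1 UMI or more of its gene and none of the other 3 gate genes. Some genes are not reported here: they stay in the fits and in the counts over lists, the plots leave them out, and the Sdc1+ gate also asked for no UMI of 1 of them. The test was edgeR's, version 4.0.16 under R 4.3.3 (filterByExpr, TMM factors, quasi-likelihood F test, Benjamini-Hochberg adjustment, threshold 0.05). Printed CPM are TMM-scaled, with SD over sums, and a level is compared between tissues, not between genes, since counts are not per length. A fold against a tissue with no UMI uses a limit of 3 UMIs over its sums on the same scale; such limits and intervals cover counting error only. Shares were compared by two-sided exact permutation tests over sums (smallest p 0.1), with adjustment over 5 classes and over 70 subset markers, for which the smallest adjusted p was 0.241. Thinning drew 1000 UMIs per cell; every kept cell had as many, so none was left out.

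Genes named are the 8 largest called folds in each direction with no overlap and a mean of at least 50 CPM in the higher tissue, without antigen receptor segments, mitochondrial genes, unnamed gene models and gate genes, together with listed genes and others chosen after their values were seen. The fits of the wider B cell gate, the Sdc1+ gate, cells with no gate gene, the other genotypes and the length correction were added after seeing the data. On simulated counts with planted changes edgeR called 83.7% to 94.7% of genes changed by log2 2 and 22% to 49.4% of those changed by log2 1, over the 7 gates tested. Of its calls, 3.09% (Cd3e+) to 7.63% (no gate gene) were false. The simulated counts held neither stray RNA nor a length trend. Alternatives were DESeq2 1.42.0, RLE factors, no filter, at least 2000 UMIs, under 10% mitochondrial counts, no Ptprc requirement, the 80% hashtag rule (with at least 10 hashtag counts), thinning, gates regardless of other gate genes, and leaving out each sum. Gene positions and spans are RefSeq's on GRCm38.p6, and 96.7% or more of tested genes had a span. Python 3.11.15 with numpy 2.4.6, scipy 1.17.1, pandas 2.3.3 and matplotlib 3.10.9 was used for the rest.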

Additional observations from a re-analysis of the deposited data

Results flagged for a closer look

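Several genes were higher in colon in cells of some gates and lower in others, with no overlap between the 3 colon and 3 LP sums in each. These differences between gates were not tested. Ccr2, a chemokine receptor of monocytes and effector T cells, had a log2 of 2.03 in Mzb1+ cells and 1.15 in cells with no gate gene, against -1.58 in Cd3e+ cells. Cd79a, the B cell receptor chain, had 0.62 in Ms4a1+ cells and 1.01 in cells with no gate gene, against -1.65 in Cd3e+ cells, where it is not expected to be made. Ahr, the aryl hydrocarbon receptor, had 0.76 in Mzb1+ cells against -0.63 in Cd3e+ cells. Prf1, perforin, had 1.87 in cells with no gate gene against -2.35 in Mzb1+ cells.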

How the results depend on the processing

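No paired analysis was possible because neither the labels nor the barcode endings state which run a sum came from, and the order of the endings pairs no samples. Over 247 named results and their alternatives (4142 values), 3774 kept direction and side of the threshold, 331 lost their call, 25 gained one and 12 changed sign. The cause of a change was not tested except where fewer cells, sums or UMIs enter by construction. Counts of calls that moved by over 1.5 times were as follows, and the number of genes tested also differed between settings. Thinning to 1000 UMIs gave 3349 over all cells, 690 in Cd3e+, 241 in Ms4a1+, 838 in Mzb1+, 20 in C1qa+, 550 in the wider B cell gate, 26 in Sdc1+ cells and 560 in cells with no gate gene. The 80% hashtag rule gave 71 in Ms4a1+, 614 in Mzb1+, 19 in the wider B cell gate, 187 in Sdc1+ cells and 806 in cells with no gate gene. The length correction gave 249 in Ms4a1+, 1018 in the wider B cell gate and 285 in Sdc1+ cells. Gates regardless of the other gate genes gave 1568 for Ms4a1, 5616 for Mzb1 and 974 for C1qa. Without the Ptprc requirement 860 genes were called in Sdc1+ cells and 2699 in cells with no gate gene, and without a filter on low counts 1040 in Sdc1+ cells. At least 2000 UMIs gave 327 in Ms4a1+ cells, and DESeq2 gave 1101 in cells with no gate gene. Heterozygous cells gave 344 in Ms4a1+, 1238 in Mzb1+ and 1096 in cells with no gate gene. The C1qa gate gave 66 with RLE factors, 14 with DESeq2, 169 under 10% mitochondrial counts, 30 with all genotypes in the fit and 426 in knockout cells.

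Leaving out each sum gave 5142 to 5661 calls over all cells, 947 to 1760 in Cd3e+, 294 to 517 in Ms4a1+, 1590 to 2002 in Mzb1+, 716 to 1617 in the wider B cell gate, 134 to 410 in Sdc1+ cells and 1049 to 1583 in cells with no gate gene. The genes tested changed as well: in Ms4a1+ cells 4.10% of 7178 genes were called without LP sum 1, and 22.0% of 2353 without colon sum 2. With 2 sums against 3 the smallest exact permutation p is 0.1. Leaving out each sum gave differences of shares of 19.0 to 21.7 points for Cd3e, 37.9 to 44.3 for Ms4a1, -14.4 to -9.62 for Mzb1, -1.08 to 0.42 for C1qa and -18.8 to -16.2 for no gate gene. The differences were 50.9 (Cd3e), 11.9 (Ms4a1), -29.9 (Mzb1), 2.57 (C1qa) and -13.3 (no gate gene) under the hashtag rule, 16.4 (Cd3e), 21.0 (Ms4a1), -19.3 (Mzb1) and -11.7 (no gate gene) after thinning, and -16.9 (Mzb1) and -13.5 (no gate gene) with at least 2000 UMIs.

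Changes of sign, as log2, were as follows. With the length correction Cd79a was at -0.049 over all cells and -0.063 in Ms4a1+ cells, and H2-Aa at -0.0042 in Ms4a1+ cells. Under the hashtag rule Cd79a was at -1.04 over all cells and -0.27 in Mzb1+ cells, Xbp1 at 0.31 in Mzb1+ cells, and Apoe and Ccr7 at -0.43 and -0.55 in cells with no gate gene. Without the Ptprc requirement Hbb-bs was at -0.21 over all cells. In gates regardless of other gate genes Dcn and Ahr were at -0.24 and 0.081 in Cd3e cells and Emb at 0.061 in Ms4a1 cells. After thinning, the shares of wider-gate B cells with Ighd and Ighm differed by -2.44 and -10.3 points, colon minus LP.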

Other observations

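Among cells with Cd3e as their only gate gene, genes of the aryl hydrocarbon receptor pathway, which senses dietary and microbial ligands, were lower in colon in 3 of 4 measured and none was higher (edgeR, 12.4% of all genes of this gate were called lower). Arnt, the partner of the receptor, averaged 40.0 CPM in colon and 100.8 CPM in LP (log2 -1.33, SE 0.27), and the target Tiparp 68.4 and 140.5 CPM (log2 -1.06, SE 0.27). Ahr itself, at log2 -0.63, lost its call in most fits that left out a sum. Its log2 was 0.081 in the gate regardless of other gate genes. No count without the length trend was made for this list. Of 9 measured chemokines 3 were higher and 1 lower. Ccl4, a chemokine of activated T cells, averaged 650.5 CPM in colon and 407.2 CPM in LP (log2 0.65, SE 0.20), and Cxcl10, an interferon-induced chemokine, 25.0 and 62.1 CPM (log2 -1.53, SE 0.40, with overlapping sums).

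In the wider B cell gate 4 of 22 proliferation genes were lower in colon and none was called higher (edgeR, 9.21% of all genes called lower). Mki67, which marks dividing cells, averaged 119.4 CPM in colon and 230.8 CPM in LP (log2 -0.95, SE 0.17), and Top2a, a topoisomerase of dividing cells, 124.5 and 209.3 CPM (log2 -0.74, SE 0.18). Among cells with Mzb1 as their only gate gene, 11 of 25 homing receptors were higher and 5 lower. The receptors of follicular and recirculating B cells Cxcr5, Ccr6 and S1pr1 had log2 values of 3.71, 3.61 and 3.35, and Itga4 and Itgal, integrin chains, had -1.14 and -1.43.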
